A study of Mus musculus with 25 samples.

Results

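H3K27me3 peaks on the autosomes were compared between wild-type and mfn2-/- regenerated myofibers. The peaks were chosen by antibody, genotype and chromosome (1 to 19), with no measured value in the rule. They number 17994, of 55242 peaks in the 24 lists of the series. The series holds lists for 4 genotypes and 2 histone marks, and the 6 lists used here are the 3 wild-type and 3 mfn2-/- H3K27me3 libraries. Mice of both groups carried the Pax7-CreERT2 driver and the mito-Dendra2 reporter, and both received 75 mg/kg tamoxifen once daily for 5 days. BaCl2 (50 µL, 1.2%) was injected into the tibialis anterior 2 days later, and fibers carrying Dendra2 were taken 14 days after this injury (14 dpi). In mfn2-/- mice, conditional Mfn2 alleles were deleted by this Pax7-driven Cre, a driver active in muscle stem cells, and the fibers studied were formed after the deletion and injury. The labels give neither age nor sex. Peak lists measure no RNA, so neither the loss of Mfn2 nor the identity of the fibers could be checked by expression. Mfn2 itself had no peak in any of the 6 lists.

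H3K27me3 is the trimethyl mark placed on histone H3 by Polycomb repressive complex 2, through its catalytic subunits Ezh1 and Ezh2. It marks silenced genes, above all CpG-rich promoters of developmental transcription factors that a differentiated cell does not use, and it is read by Cbx proteins of Polycomb repressive complex 1. In skeletal muscle it is known from silenced lineage regulators of other tissues. The paper reports it inside Myh8, the neonatal myosin gene, in wild-type regenerating fibers, and found none of significance at the other myosin heavy chain genes. Mfn2 encodes mitofusin 2, which sits in the outer membrane of mitochondria and joins them to each other. The study asked how repressive histone marks differ, over the genome and at the myosin heavy chain genes, when regeneration is arrested in mfn2-/- fibers. The comparison here is of the autosomal H3K27me3 lists of these fibers with those of wild-type.

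The promoter windows of 5 genes show the kind of sequence that the peaks do and do not cover. Each is the RefSeq window from 250 bases before to 50 bases after a gene's start (GRCm38.p6, the assembly of mm10), and capitals mark CpG dinucleotides. Myh8, the neonatal myosin heavy chain, lies at chr11:67276874-67277173 on the + strand, holds 6 CpG and had no peak on this window in any list. Foxd1 (chr13:98353995-98354294, + strand, 15 CpG) and Pax2 (chr19:44755502-44755801, + strand, 23 CpG), transcription factors of kidney development, had a peak on the window in all 6 lists. The Foxd1 peak of mfn2-/- replicate 2 reached only the first bases of the window, ending at 98354002. Pax2 has further windows. That at chr19:44746351-44746650 had no peak in any list, and that at chr19:44756656-44756955 (30 CpG) had one in 1 wild-type and 2 mfn2-/- lists. Msx1 (chr5:37824536-37824835, - strand, 29 CpG), a homeobox factor that holds progenitors undifferentiated, had a peak on its window in the 3 wild-type lists and in no mfn2-/- list. The peak of the third wild-type list overlapped only the base farthest upstream, the first one printed. Bcl11b (chr12:108003365-108003664, - strand, 9 CpG), a zinc finger factor of T cells and neurons, had a peak on its window in the 3 mfn2-/- lists and in no wild-type list.
Myh8: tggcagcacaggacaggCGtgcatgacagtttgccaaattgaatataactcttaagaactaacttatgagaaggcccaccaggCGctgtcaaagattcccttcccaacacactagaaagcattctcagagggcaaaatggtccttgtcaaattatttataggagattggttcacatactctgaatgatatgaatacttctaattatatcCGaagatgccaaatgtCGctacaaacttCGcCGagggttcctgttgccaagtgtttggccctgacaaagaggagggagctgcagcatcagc
Foxd1: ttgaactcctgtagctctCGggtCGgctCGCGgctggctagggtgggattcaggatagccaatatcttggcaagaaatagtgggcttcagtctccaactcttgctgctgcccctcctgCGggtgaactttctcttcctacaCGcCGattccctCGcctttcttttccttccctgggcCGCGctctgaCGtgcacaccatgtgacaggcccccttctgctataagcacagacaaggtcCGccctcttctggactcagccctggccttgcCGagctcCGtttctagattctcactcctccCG
Pax2: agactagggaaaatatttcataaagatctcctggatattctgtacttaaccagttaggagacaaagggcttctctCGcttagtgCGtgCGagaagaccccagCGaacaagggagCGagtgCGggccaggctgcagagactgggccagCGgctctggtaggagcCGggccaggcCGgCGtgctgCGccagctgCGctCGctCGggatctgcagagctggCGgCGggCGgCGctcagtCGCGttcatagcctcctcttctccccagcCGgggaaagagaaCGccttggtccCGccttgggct
Msx1: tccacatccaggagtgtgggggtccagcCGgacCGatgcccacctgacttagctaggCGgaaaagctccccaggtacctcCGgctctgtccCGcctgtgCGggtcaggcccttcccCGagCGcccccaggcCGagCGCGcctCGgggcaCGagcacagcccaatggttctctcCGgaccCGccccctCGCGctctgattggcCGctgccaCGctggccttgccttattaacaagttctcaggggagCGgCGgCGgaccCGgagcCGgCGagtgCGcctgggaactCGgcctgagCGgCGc
Bcl11b: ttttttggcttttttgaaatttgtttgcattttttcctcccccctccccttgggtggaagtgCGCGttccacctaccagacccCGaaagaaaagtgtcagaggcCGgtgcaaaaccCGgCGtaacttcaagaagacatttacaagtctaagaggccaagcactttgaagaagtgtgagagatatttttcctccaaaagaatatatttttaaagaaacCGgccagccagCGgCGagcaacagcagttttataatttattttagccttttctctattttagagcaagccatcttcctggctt
Both Msx1 and Bcl11b had other peaks in all 6 lists, so what differed was the position of the peaks and not the presence of one. At Pax2 the peak on the printed window scored 124, 141 and 169 in the wild-type lists and 59.8, 117 and 361 in the mfn2-/- lists. At Foxd1 the scores were 200, 154 and 353 against 306, 60.9 and 52.8. The score is minus 10 times the log10 of the peak p-value given by the peak caller, and in both genes the genotypes overlapped.

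The mfn2-/- libraries had fewer autosomal H3K27me3 peaks than every wild-type library. The wild-type lists held 3763, 3433 and 3427 peaks (3541 ± 192, SD, n = 3) and the mfn2-/- lists 2455, 2342 and 2574 (2457 ± 116, SD, n = 3), a ratio of 0.694. The genotypes did not overlap, and the exact two-sided permutation test gave p = 0.1, the smallest value that 3 libraries against 3 allow (0.14 after Benjamini-Hochberg adjustment over 7 tests). Peaks covered 3.51, 3.06 and 3.01 Mb in wild-type and 2.26, 1.93 and 2.30 Mb in mfn2-/- fibers, a ratio of 0.676 (exact permutation p = 0.1). Genes named as nearest to a peak numbered 2028, 1898 and 1870 against 1306, 1233 and 1373, a ratio of 0.675 (exact permutation p = 0.1). Peaks were of similar width, with medians of 779, 755 and 739 bp in wild-type and 776, 681 and 741 bp in mfn2-/- lists, which overlapped (exact permutation p = 0.5). The lower number was seen on 19 of 19 autosomes, where mfn2-/- counts lay below every wild-type count and the ratio ran from 0.594 to 0.769.

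The autosomal difference stood beside an opposite one on the X chromosome. The X held 13, 10 and 5 peaks in the wild-type lists and 1063, 1016 and 1105 in the mfn2-/- lists, which was 30.2% ± 0.118 (SD, n = 3) of all mfn2-/- peaks. Counted over all chromosomes, the mfn2-/- to wild-type ratio was 0.991 (exact permutation p = 0.7 on the log2 scale and 0.8 on the counts themselves). The X difference went with genotype in every library, sex is not labelled, and their parts in the autosomal ratio cannot be told apart. Read depth is unknown, and a peak caller's p-value grows with depth, so its part in the peak numbers was not tested. Median scores were alike, at 62.8 in wild-type and 62.7 in mfn2-/- lists.

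**Figure D1:**
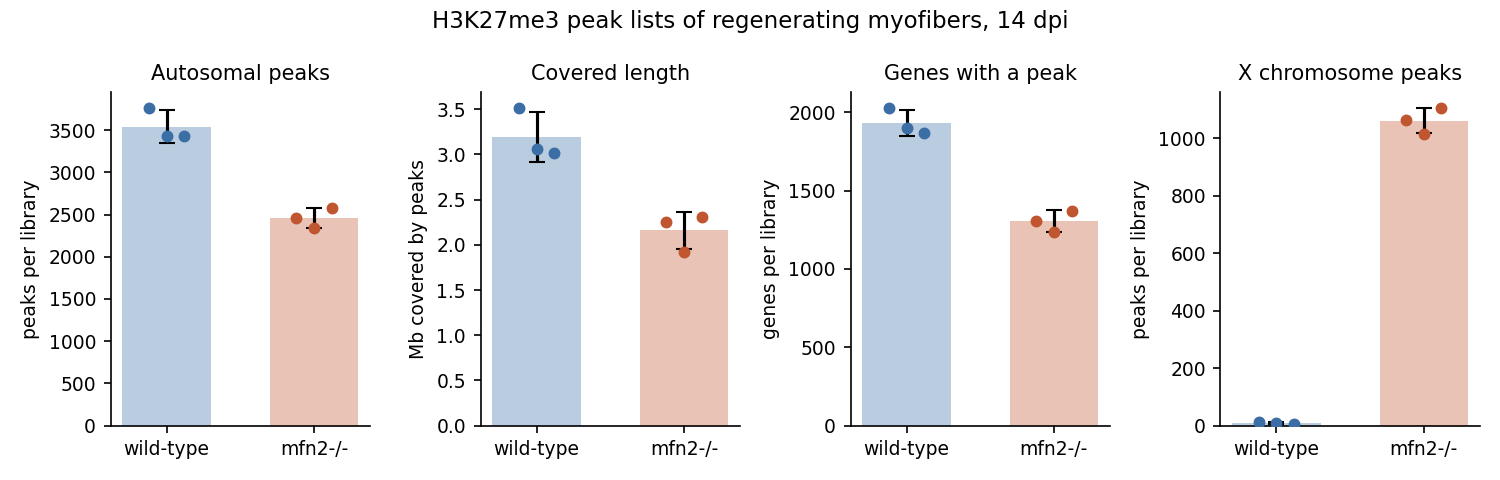
Autosomal H3K27me3 peaks, megabases (Mb) they cover, genes with a peak, and X chromosome peaks per library. Bars are means of 3 libraries, error bars the SD and points single libraries. The mfn2-/- libraries lie below all wild-type libraries in the first 3 panels (means of 2457 against 3541 autosomal peaks) and above them on the X.

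Promoters, taken as up to 3 kb from a gene's start, held about the same part of both genotypes' peaks. They took 49.7, 48.5 and 49.8% of peaks in wild-type and 51.9, 52.0 and 52.6% in mfn2-/- lists, a difference of 2.82 percentage points with no overlap (exact permutation p = 0.1). Distal intergenic peaks took 31.0, 32.4 and 32.2% against 30.0, 31.2 and 29.3%, which overlapped (exact permutation p = 0.2). When each library was held to its 2342 strongest peaks, the number in the smallest list, the order of both turned. Promoters then took 53.7% ± 1.77 in wild-type and 52.6% ± 0.783 in mfn2-/- lists (SD, n = 3; exact permutation p = 0.6), and distal intergenic peaks 29.5% ± 1.34 against 30.0% ± 1.17 (exact permutation p = 0.6). In numbers, mean promoter peaks were 1748 in wild-type and 1282 in mfn2-/- lists (ratio 0.73), distal intergenic peaks 1128 and 741 (0.66) and intronic peaks 501 and 317 (0.63).

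**Figure D2:**
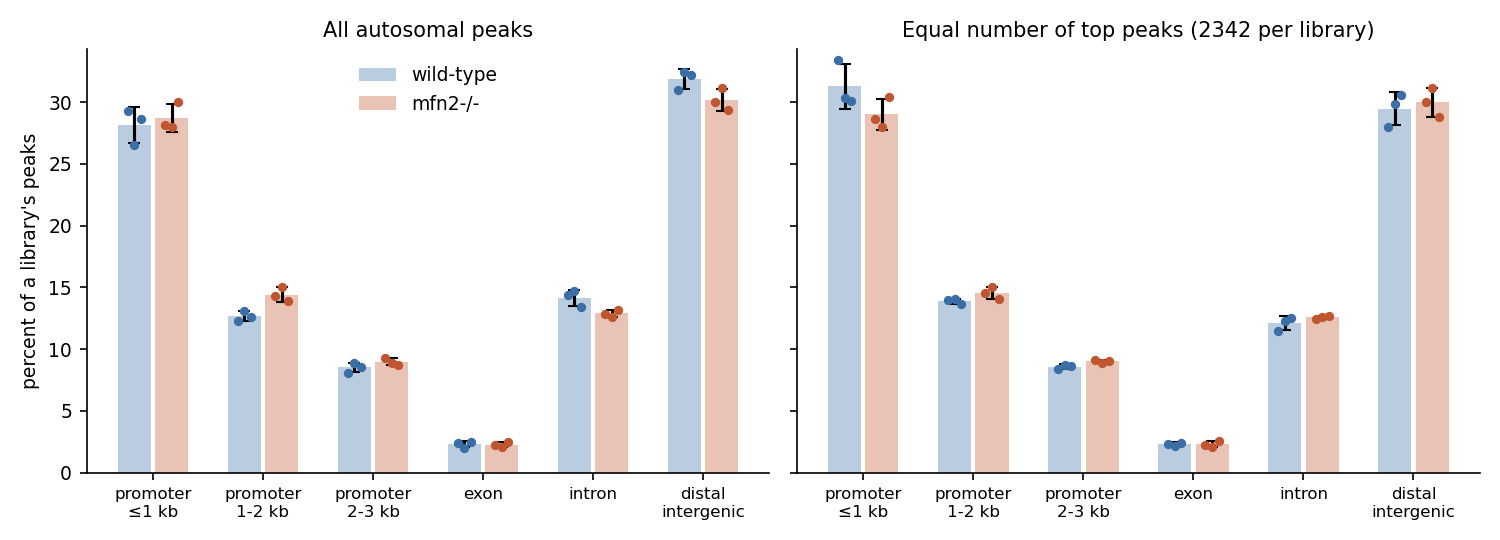
Share of autosomal H3K27me3 peaks (percent) in each annotation class, for the full lists and for the 2342 strongest peaks of each library. Bars are means of 3 libraries, error bars the SD and points libraries. In the full lists the 1 to 2 kb promoter class (12.7% in wild-type and 14.4% in mfn2-/-) and the intron class (14.2% and 12.9%) separate the genotypes. With lists of equal length these overlap, and the 2 to 3 kb promoter class separates them (8.58% and 9.04%). The classes lie close together in both panels.

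Peaks recurred across genotypes according to their strength. Of mfn2-/- peaks, 62.1% ± 0.852 overlapped a peak of any wild-type list by at least 1 bp, and of wild-type peaks 44.6% ± 1.85 overlapped a peak of any mfn2-/- list (SD, n = 3). The wild-type lists are longer and so easier to hit. Within a genotype, 49.5% of mfn2-/- and 46.6% of wild-type peaks overlapped a peak of the other 2 lists, which are 1 list fewer to hit. At equal list length, the mean over pairs of libraries was 35.5% of mfn2-/- peaks found in a wild-type list and 33.7% of wild-type peaks found in an mfn2-/- list. In the strongest 20% of each list, 92.5% of mfn2-/- and 80.9% of wild-type peaks recurred in the other genotype, against 40.4% and 23.0% in the weakest 20%. In the other 2 lists of their own genotype, 86.4% and 81.9% of the strongest recurred, and 29.0% and 26.4% of the weakest. Promoter peaks recurred more often than intronic ones, at 70.3% against 51.6% for mfn2-/- and 53.5% against 31.4% for wild-type peaks. Libraries of a genotype were little more alike than libraries of different genotypes. The mean Jaccard index, shared over total covered bases, was 0.152 within wild-type, 0.169 within mfn2-/- and 0.146 between genotypes (one-sided exact permutation p = 0.1 for within minus between, the smallest possible).

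Myh8 carried the largest difference in strength among the regions found in all lists. Its peak scored 3100 in each wild-type list, the ceiling of the score, and 402, 511 and 414 in the mfn2-/- lists. It ranked 1 in each wild-type list and 9, 5 and 11 among the autosomal peaks of the mfn2-/- lists, so every mfn2-/- library still held it among its strongest peaks. On the log2 score centred on each library's median over 309 shared regions, the mfn2-/- value fell by 2.73 (SE 0.32; limma adjusted p = 1.44e-14). The wild-type scores all stand at the ceiling, so they may be understated, and the spread of the wild-type scores, on which the p rests in part, is not seen. The region spans chr11:67281518-67284995. Measured from the RefSeq start of Myh8, the main peak ran from 4.40, 4.39 and 4.49 kb to 7.87, 7.75 and 7.80 kb in wild-type and from 4.64, 4.70 and 4.77 kb to 6.68, 7.76 and 7.67 kb in mfn2-/- lists, inside the gene, although the authors' annotation places it 1 to 2 kb from a start. Peaks covered 3476, 3354 and 3309 bp of this region in wild-type and 2998, 3060 and 2906 bp in mfn2-/- lists, so every mfn2-/- library was also the shorter. On the log2 length less each library's median over the shared regions, the difference was 0.01 (SE 0.33; limma adjusted p = 0.997). The genes for the adult fast, slow, embryonic and cardiac heavy chains, Myh1, Myh2, Myh4, Myh7, Myh3 and Myh6, and Myh7b, Myh13 and Myh15, had no peak in any list.

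Across the 309 regions present in all 6 lists, at 238 genes, scores were otherwise close. The test called 1 region lower, that at Myh8, and 1 higher in mfn2-/- fibers, 0.324% of regions tested in each direction. The one called higher lies nearest to Gm5614, a predicted gene, in an intergenic stretch at chr9:35304699-35306050. It scored 205, 336 and 178 in wild-type and 590, 866 and 704 in mfn2-/- lists, a rise of 1.71 on the log2 scale (SE 0.44; limma adjusted p = 0.0198). All mfn2-/- values lay above all wild-type values, but the call was lost in 6 of 13 alternative settings, among them the fit without the Myh8 region, where the limma adjusted p was 0.262. It was also lost without wild-type replicate 1 (0.239) or 3 (0.245) and without mfn2-/- replicate 2 (0.459) or 3 (0.148), all limma adjusted p-values. Of the 309 regions, 146 had a higher and 163 a lower mfn2-/- mean, the median difference was -0.04, and at an unadjusted p below 0.05 there were 11 higher and 7 lower. Values of the genotypes did not overlap at 37 regions (12.0%). Covered length, tested by limma at the same regions, gave 0 calls (0.0%), with 27 at an unadjusted p below 0.05.

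The next regions by p did not pass the threshold. On the higher side they were near Gm9075, a predicted gene, with scores of 79.5, 187 and 89.9 in wild-type and 265, 331 and 323 in mfn2-/- lists (limma adjusted p = 0.244), and at 4930477E14Rik, known by its clone name, with 121, 66.2 and 51.5 against 205, 195 and 184 (limma adjusted p = 0.285). Vax2os, antisense to the eye homeobox gene Vax2, followed with 52.7, 64.8 and 55.4 against 123, 102 and 154. On the lower side, Lef1, a transcription factor of the Wnt pathway, scored 142, 134 and 144 in wild-type and 71.3, 62.1 and 50.0 in mfn2-/- lists (log2 difference -1.13, limma adjusted p = 0.625). The predicted gene Gm20649 followed with 294, 199 and 95.02 against 94.1, 86.4 and 51.1, and then Adcyap1, the neuropeptide PACAP, with 132, 57.6 and 120 against 50.6, 52.1 and 55.8. The genotypes did not overlap at any of these regions, but the regions were picked by p, and 12.0% of all 309 regions were separated so. Among the strongest shared regions, that near Nkx2-4, a homeobox gene of the forebrain, scored 489, 465 and 285 against 389, 376 and 731. The region near Igf2bp3, an RNA-binding protein of fetal tissue, scored 547, 630 and 442 against 427, 174 and 700. Both overlapped between genotypes, and of the strongest regions only that at Myh8 passed the test.

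**Figure D3:**
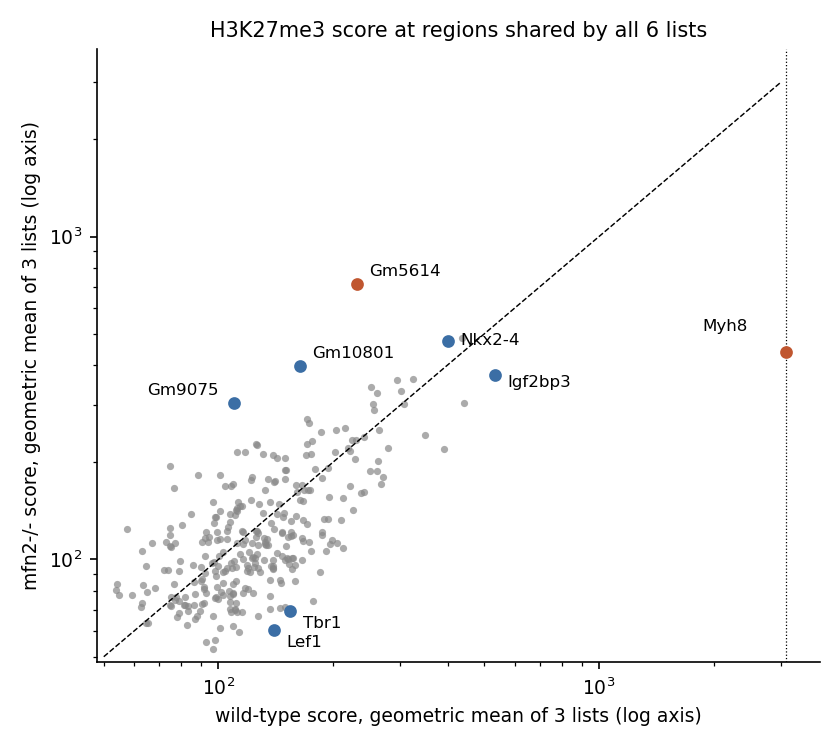
Geometric mean score of each of the 309 regions found in all 6 lists, wild-type on the horizontal and mfn2-/- on the vertical axis, both logarithmic. Each point is a region, orange ones passed the test, the dashed line marks equal scores and the dotted line the ceiling of 3100. The Myh8 region lies far below the diagonal with its wild-type value at the score ceiling, the Gm5614 region lies above it, and the other regions scatter around it.

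Genes with a peak in every wild-type list and in no mfn2-/- list numbered 92 of 4239 genes with any peak (2.17%), and the reverse 9 (0.212%). In all, 55.2% of genes had a peak in more wild-type than mfn2-/- lists and 23.2% in more mfn2-/- than wild-type lists. Gusb, which encodes the lysosomal enzyme beta-glucuronidase, was the strongest of the 92. Its peak, in exon 9 of 12 at chr5:129994083-129996789, scored 994, 848 and 853 and ranked 2 in each wild-type list. No mfn2-/- library had a peak at Gusb. Ryr3, a calcium release channel of the sarcoplasmic and endoplasmic reticulum found in developing muscle, had peaks of 221, 405 and 131 in intron 1 of 102. Egr4, an early growth response transcription factor, scored 141, 179 and 67.6 at its promoter, and Itgb4, the integrin beta 4 subunit of hemidesmosomes, 181, 77.3 and 89.8. Ppfia3, a liprin of synaptic vesicle release sites, scored 124, 131 and 149, and Ccs, the copper chaperone of superoxide dismutase, 103, 112 and 89.2 at an intergenic peak. D930020B18Rik (91.1, 105 and 91.8) and H2-Q7 (146, 60.8 and 122) complete the strongest 8, the second a class I histocompatibility gene with near-identical copies whose reads cannot be told apart here.

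The wild-type group was smaller with lists of equal length. Held to 2342 peaks a library, 41 genes were in every wild-type and no mfn2-/- list, 37 of them among the 92. With a score of at least 100 asked of every peak, 10 such genes were counted and 3 belonged to the 92, Gusb, Ppfia3 and Ryr3. Of the 92 genes, 76 (82.6%) had a peak in at least 1 of the 3 vhl-/- lists of the same mark and 26 (28.3%) in all 3, against 57.3% and 19.3% of all 4239 genes. For the 9 genes of the reverse kind the shares were 66.7% and 33.3%, and for the 406 genes in all 6 lists 99.5% and 90.1%. Of all 4239 genes, 2088 (49.3%) were in 1 list only, while the 92 were chosen for a peak in 3 lists. All genes are thus not a like comparison for the 92, and no conclusion is drawn from the higher shares.

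The 9 genes marked in every mfn2-/- and no wild-type list differ in kind. Nog, the BMP antagonist noggin, had peaks of 164, 158 and 75.9 at its promoter. Six2, a homeobox gene of nephron progenitors, scored 69.5, 104 and 80.1 at intergenic peaks, the first at a site apart from the rest. A weaker Six2 peak of the first library (52.6) overlapped both of the others. Wnt7b, a secreted Wnt ligand, scored 50.8, 52.1 and 61.4, close to the floor and at 3 separate positions. Cdkn1a, the cell cycle inhibitor p21, was the gene nearest to intergenic peaks of 117, 54.0 and 178 on chromosome 17. The strongest of the 9 was 9230019H11Rik, a gene known by its clone name near the start of chromosome 10, at 282, 131 and 233. Hoxd3os1 (59.1, 76.0 and 53.0) and Gm14396 (60.7, 53.1 and 61.0) lie in the HoxD cluster, and Ccdc122 (77.2, 57.7 and 95.5) and Mpped1 (58.3, 83.9 and 54.0) complete the group. At Hoxd3os1 and Mpped1 the best peaks of the libraries did not overlap each other, and at Ccdc122 the first overlapped neither of the others. The 9230019H11Rik peak of 131 overlapped neither that of 282 nor that of 233. Likewise the Cdkn1a peak of 54.0 lay apart from those of 117 and 178. Counting weaker peaks, each of these 2 genes had a region found in all 3 mfn2-/- lists. The Nog peaks of 158 and 75.9 did not overlap each other, nor did the Gm14396 peaks of 53.1 and 61.0. In both genes the remaining best peak overlapped each of them. With lists of equal length the group was 18 genes, and all 9 were among them.

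Some regions listed in every library of only one genotype also carried the other mark. This look at H3K9me3, the heterochromatin mark, was chosen after the values were seen. Of 25 regions with H3K27me3 in every mfn2-/- and no wild-type list (0.264% of 9473 regions), 6 (24.0%) overlapped an H3K9me3 peak in all 3 wild-type lists, 4 of which overlapped none in the mfn2-/- H3K9me3 lists. They are 3 regions at 9230019H11Rik, 2 at Tcte2 and 1 near Cdkn1a. Near Cdkn1a the H3K9me3 scores were 71.6, 131 and 100.4 in wild-type, with no peak in mfn2-/- lists. At the strongest 9230019H11Rik region they were 2851, 2962 and 2858 in wild-type and 82.0, 76.6 and 68.2 in mfn2-/- lists, so there the wild-type lists held strong H3K9me3 and no H3K27me3. Of 65 regions with H3K27me3 in every wild-type and no mfn2-/- list (0.686%), 1 had H3K9me3 in any list, and of all 9473 regions 44 did (0.464%). Among the 309 shared regions, 6 had H3K9me3 in all 6 lists, at 2210408I21Rik, Chl1, Dpy19l2, Gm10801, Gm5614 and Gm9075, and in each the mfn2-/- H3K27me3 mean was higher, by 0.72, 0.96, 0.48, 1.36, 1.71 and 1.55 on the log2 scale. The seventh shared region with H3K9me3, at Gm21188, had it in 2 wild-type and 1 mfn2-/- list and a lower mfn2-/- H3K27me3 mean (-0.48). A call was made only for Gm5614. Its H3K9me3 scores were 1509, 1483 and 1504 in wild-type and 578, 919 and 1927 in mfn2-/- lists. The input library was not analysed, so signal without antibody at the regions with both marks, Gm5614 among them, is not known. Myh8, Gusb, Ryr3, Nog and Six2 had no H3K9me3 peak.

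Developmental transcription factor genes had about as many marked members in mfn2-/- as in wild-type lists. Of 237 genes in 14 families, 151, 145 and 150 had a peak in the wild-type lists and 151, 143 and 150 in the mfn2-/- lists, a ratio of 0.996 where all genes gave 0.675. With lists of equal length the ratios were 1.05 and 0.937. Of the 175 with a peak in any list, 116 were in all 6, which 9.58% of all genes were. By member, 24 were in more wild-type and 23 in more mfn2-/- lists, and the median difference in number of lists was 0, where over all genes it was -1.0. Their peaks averaged 567 in wild-type and 535 in mfn2-/- lists (ratio 0.94), while genes in none of the lists described here averaged 2845 and 1838 (0.65). They so took 16.0% ± 0.425 of wild-type and 21.8% ± 0.888 of mfn2-/- peaks (SD, n = 3). Developmental genes had several peaks each, and a gene counts as marked while any of them is listed.

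Hox cluster genes, which set position along the body axis, had more peaks in every mfn2-/- than in any wild-type library, a family singled out after the values were seen. They had 41, 37 and 38 peaks in wild-type and 53, 52 and 53 in mfn2-/- lists, a ratio of 1.36 with no overlap, and covered 42.5, 42.1 and 41.2 kb against 54.9, 46.8 and 50.7 kb. The number of Hox genes marked was 15, 15 and 14 against 17, 15 and 18, which overlapped. How many of the 14 families were separated by peak number is not given here, so nothing is drawn from the separation. Hoxb4, with 55.5 in 1 wild-type list, scored 62.9, 136 and 52.0 in the mfn2-/- lists, and Hoxb7 had no wild-type peak and 84.4 and 83.1 in 2 mfn2-/- lists. The family of Six2 and the Eya genes (peak ratio 1.20) and Gata, Zic and Sall genes (1.12) were the other families with a ratio above 1.0, head and brain homeobox genes stood at 1.00, and Sox genes had the lowest (0.65). All 9 marked Dlx, Msx and Gsx genes, which pattern the face, limbs and forebrain, were in all 6 lists.

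Some members had scores in one genotype that lay wholly above those of the other. Atoh1, a proneural factor of the cerebellum and inner ear, scored 332, 240 and 149 in wild-type and 108, 104 and 65.4 in mfn2-/- lists. Isl1, a LIM homeobox factor of motor neurons, went the other way, at 129, 167 and 169 against 218, 189 and 228, while its peaks covered less in mfn2-/- lists (8233, 8979 and 9128 bp against 6539, 6511 and 5274 bp). The scores of the genotypes did not overlap at either gene, and the best score of a gene was not tested. The share of members separated so is not given here, and of the 309 shared regions 12.0% were, so nothing is drawn about the families. Developmental genes marked in every wild-type and no mfn2-/- list were 4 of the 175, beside 2.17% of all genes. Among genes marked in every wild-type list, they were 4 of 129 (3.10%), beside 88 of 631 other genes (13.9%), with score not matched. The 4 were Foxe1, a thyroid factor (61.3, 100.1 and 202), Foxn4, a retinal factor (94.1, 114 and 64.4), Sox5, a cartilage factor (74.2, 63.9 and 56.1), and Irx6 (51.1, 57.5 and 53.0). At Foxe1 and Foxn4 the best peak of the second list overlapped neither of the others.

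**Figure D4:**
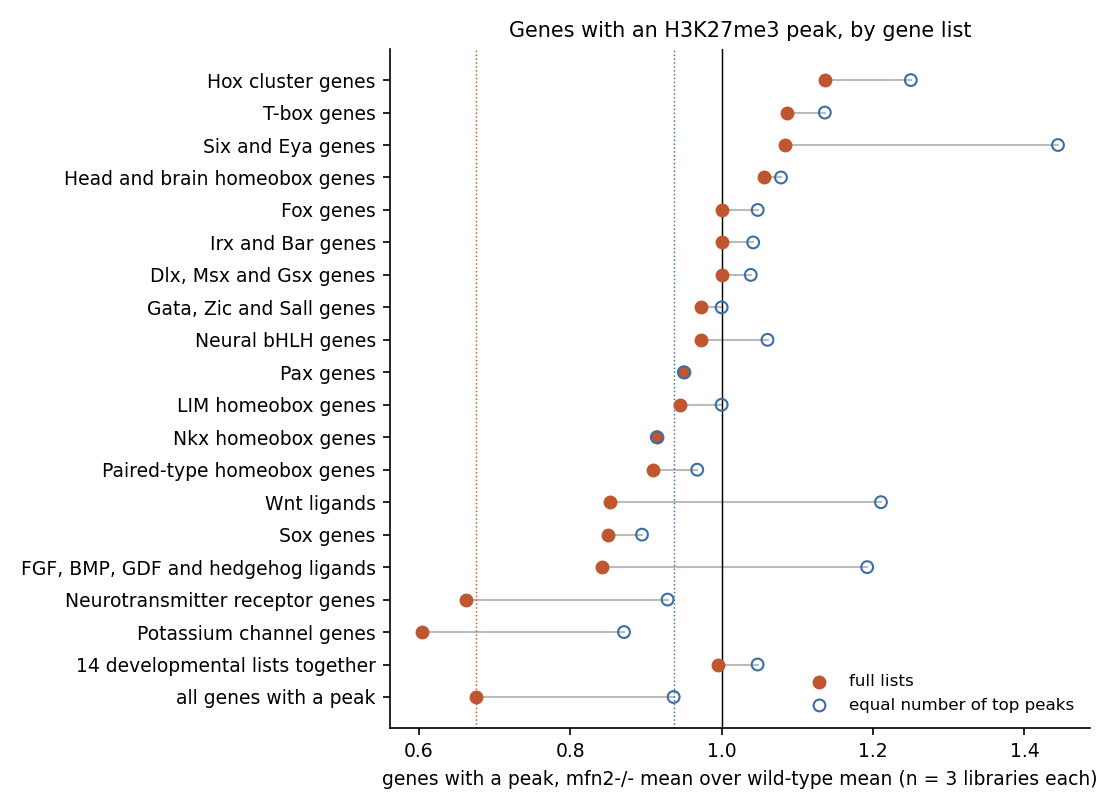
Genes with an H3K27me3 peak in the mfn2-/- relative to the wild-type lists (ratio of means of 3 libraries) for each gene list, from the full lists (filled) and from lists of equal length (open); dotted lines mark the ratios of all genes, 0.675 and 0.937. The 14 developmental lists together lie at 0.996 and 1.05, while potassium channel (0.604) and neurotransmitter receptor genes (0.662) lie near the ratio of all genes in the full lists.

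The same contrast was seen among the genes that were marked in every wild-type list. Of 760 such genes, 406 (53.4%) were also marked in every mfn2-/- list. Of the developmental genes among them this held for 116 of 129 (89.9%), and of all others for 290 of 631 (46.0%). Developmental genes score higher, so genes were divided by their mean percentile of score within the wild-type lists. At a percentile of 75 and over, 98 of 102 developmental genes (96.1%) and 187 of 257 others (72.8%) were in every mfn2-/- list. At 50 to 75 the numbers were 15 of 20 (75.0%) and 84 of 241 (34.9%), and under 50 they were 3 of 7 and 19 of 133 (14.3%). In every class the developmental share was the higher, although the lowest class holds only 7 such genes, and the number of peaks per gene was not matched. In the other direction, 76.7% of the 529 genes marked in every mfn2-/- list were marked in every wild-type list.

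**Figure D5:**
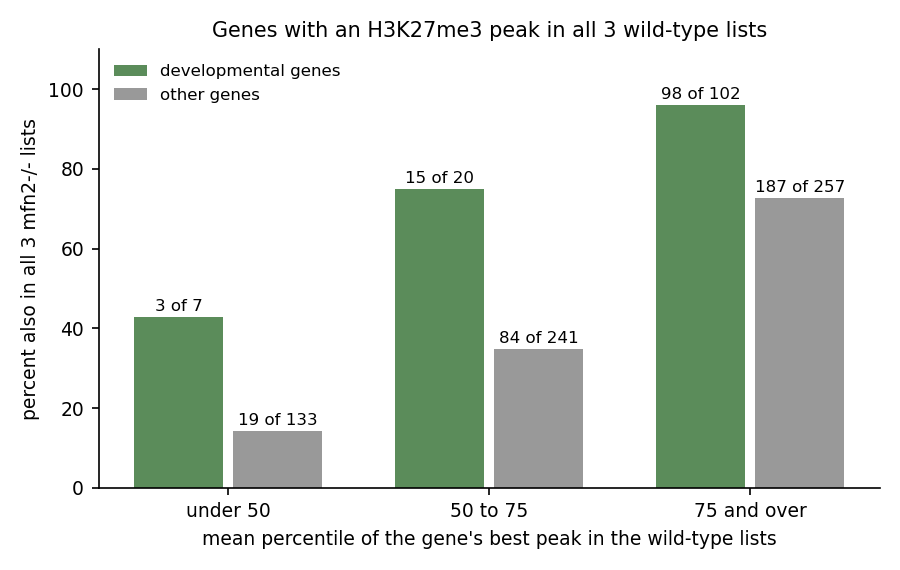
Percent of genes with an H3K27me3 peak in all 3 wild-type lists that also had one in all 3 mfn2-/- lists, for developmental and other genes (bars, with gene numbers above them) in 3 classes of the mean percentile of a gene's best wild-type peak. The developmental genes lie higher in each class, at 96.1% against 72.8% in the strongest.

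Potassium channel and neurotransmitter receptor genes had fewer marked members in mfn2-/- lists. Of 53 potassium channel genes, 19, 14 and 15 were marked in wild-type and 9, 8 and 12 in mfn2-/- lists, which did not overlap (ratio 0.604, or 0.871 with lists of equal length). Of the 32 marked in any list, 19 were in more wild-type and 6 in more mfn2-/- lists, beside 55.2% and 23.2% of all genes. Kcnk10, a background leak channel, scored 59.4, 66.2 and 55.0 in wild-type lists and had no mfn2-/- peak. Of 66 receptor genes, 26, 20 and 19 were marked against 11, 16 and 16 (ratio 0.662, or 0.929 at equal length), and Htr2a, a serotonin receptor, scored 59.9, 51.7 and 64.4 with no mfn2-/- peak. These counts are near the background of all genes in the full lists. Counted as peaks, both groups together had 66, 59 and 49 in wild-type and 25, 28 and 33 in mfn2-/- lists, a ratio of 0.49 beside 0.65 for genes in none of the lists.

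Secreted signals were marked in similar numbers. Of 19 Wnt ligand genes, 11, 9 and 7 had a peak in wild-type and 9, 8 and 6 in mfn2-/- lists, and of 40 FGF, BMP, GDF and hedgehog ligands 17, 11 and 10 against 10, 11 and 11, both with overlap. Fgf3, a growth factor of the inner ear, scored 55.0, 51.7 and 52.4 in wild-type and had no mfn2-/- peak, which lies at the floor. Wnt16 scored 71.6, 51.0 and 111 in wild-type and 60.7 in 1 mfn2-/- list. Of 8 marked Wnt receptors and antagonists, 2 were in more wild-type and 2 in more mfn2-/- lists.

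Adult fiber genes carried almost no peaks in either genotype, and few myogenic genes were marked. Of 29 adult fiber genes, none was marked in wild-type lists, and in mfn2-/- lists Mybpc1, a slow myosin-binding protein, had 55.2 in 1 library and Atp2a2, the slow calcium pump, 54.5 in another. Of 23 myogenic and developing muscle genes, 2, 2 and 2 against 3, 2 and 2 were marked, with 12, 7 and 9 peaks in wild-type and 6, 10 and 8 in mfn2-/- lists. Most of these lay at Tcf21, a bHLH factor of mesenchyme (10, 6 and 7 against 4, 9 and 7 peaks). Myod1 and Myog, which drive myogenic differentiation, were never marked. Pax7, the muscle stem cell factor, scored 105 and 67.9 in 2 wild-type lists and 52.4 in 1 mfn2-/- list. Of 42 target genes of HIF1, the hypoxia-induced factor, 7 had a peak in any list, and Hif1a and Vhl had none. Edn1, endothelin 1, was the only target in 2 lists of a genotype, with 52.9 and 62.0 in wild-type and 75.6 in 1 mfn2-/- list. Of 19 mitochondrial dynamics and HIF pathway genes, 3 had a single peak each, at Nfatc2, Opa1 and Ppargc1a. Among 18 genes for Polycomb proteins and H3K27 enzymes, Cbx8 and Bmi1 were marked in all 6 lists, and Cbx2 scored 120 and 93.3 in 2 wild-type and 145, 56.2 and 119 in the mfn2-/- lists.

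Markers of other cells of muscle had few marked members in either genotype. Of 10 macrophage and leukocyte markers 2, 3 and 3 had a peak in wild-type and 2, 0 and 2 in mfn2-/- lists, of 10 endothelial markers 1, 0 and 1 against none, and of 9 Schwann and nerve markers 0, 1 and 2 against 1, 0 and 0. Cd14, a macrophage receptor, scored 91.8, 95.2 and 92.9 in wild-type and 54.4 and 68.9 in 2 mfn2-/- lists. Pdgfra, the receptor that defines fibro-adipogenic cells, scored 225, 165 and 88.3 against 51.3 and 150 in 2 mfn2-/- lists. The part of other cells in the lists was not tested.

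Peaks reached few promoter windows in either genotype. Of 31396 autosomal RefSeq windows of 300 bases, 412, 333 and 301 held part of a wild-type peak and 248, 189 and 226 part of an mfn2-/- peak. The median number of CpG was 7 over all windows and 15 over the 1004 windows with a peak in any list, and by library it was 15, 16 and 14 in wild-type and 13, 15 and 15 in mfn2-/- lists. The 99 windows with a peak in at least 2 wild-type and no mfn2-/- list had a median of 21, and the 28 with the reverse 15. The 13 windows with a peak in all 6 lists had a median of 9, and the 8 covered in every wild-type and no mfn2-/- list 10. The letters ACGTG, a form of the core that HIF1 binds, stood on either strand in 19.7% of all windows, 20.7% of those with a peak in any list, 28.3% of the 99 and 17.9% of the 28. They stood in 4 of the 13 windows of all 6 lists (30.8%), in 2 of the 8 covered in every wild-type and no mfn2-/- list and in 1 of the 4 with the reverse. The part of CpG content in these shares was not tested. The Foxd1 window printed above holds ACGTG, and other forms of the core were not counted.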

How the data were processed

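ChIP-seq peak lists of 3 wild-type and 3 mfn2-/- H3K27me3 libraries (antibody ab6002) were analysed. The authors deposited 1 list per library, with each peak's interval, nearest gene, feature class and score, which is minus 10 times the log10 of the peak p-value. The submitters' processing notes name BWA 0.7.5, MACS (version not given in the sources used here), deepTools 3.5.0 and mm10. Scores run from a floor of 50 to a ceiling of 3100 and grow with read depth, which is unknown, so neither intervals nor floors are given. The input library was not analysed here.

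Chromosomes 1 to 19 were kept. Peaks of the 6 lists overlapping by at least 1 bp were merged into 9473 regions. Library values were compared with exact permutation tests (20 arrangements). Log2 scores at regions in all 6 lists, less each library's median, were tested with limma 3.58.1 (variance trend, Benjamini-Hochberg threshold 0.05) in R 4.3.3, checked on simulated data. Other steps used Python 3.11.15, numpy 2.4.6 and pandas 2.3.3. A gene's value in a library is its best peak score. Labels do not say that replicates are separate animals, so p-values measure only the spread between these libraries.

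Alternatives were lists of equal length, a score of at least 100, promoter peaks only, peaks joined within 1000 bp, other scalings, a replicate block and leaving out each library. The members and gene lists were chosen with earlier results of these data known. Named genes are the myosin, Mfn2, Vhl, Hif1a, Nfatc2, Pax7, Myod1 and Myog genes, up to 8 genes per direction found in every list of a single genotype, up to 8 shared regions per direction by p and 8 by strength, and up to 3 members per list whose number of lists differed most. Chl1, Dpy19l2, Gm21188, Tcte2, Tcf21, Opa1, Cbx8 and Bmi1 and the genes of the printed windows were added after their values were seen. Of 4239 genes, 3933 matched a RefSeq symbol and 2733 a promoter window. The symbol Drgx was unmatched, and Fgf16, Pdha1 and Rbbp7 are not autosomal.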

Additional observations from a re-analysis of the deposited data

Results flagged for a closer look

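The X chromosome, outside the autosomal comparison, held 30.2% of all H3K27me3 peaks in the mfn2-/- libraries (mean of 3) and 0.260% in the wild-type libraries. H3K9me3, the other mark of the series, had a peak in all 3 wild-type lists at 6 of the 25 regions where H3K27me3 was listed in every mfn2-/- and no wild-type library.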

How the results depend on the processing

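The autosomal peak number, covered length and number of genes kept their direction under every alternative run, and with a replicate block their exact permutation p was 0.25, the smallest that the block allows. Median width without a library ran from 0.938 to 1.00 of wild-type. The promoter difference was -1.11 percentage points with lists of equal length and -0.367 in the top 1000 peaks of each library, a choice made after seeing the data, and the distal intergenic difference was 0.541 and 0.50. Genes in every wild-type and no mfn2-/- list numbered 41 with equal length, 59 with promoter peaks only, 10 with scores of at least 100 and 128 to 218 without a library, and genes of the reverse kind 18, 4, 4 and 14 to 34. The same counts of regions were 32 with equal length and 93 to 236 without a library for wild-type, and 38 and 40 to 88 for mfn2-/- fibers. Leaving out a library asks fewer lists to hold the peak.

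Calls at shared regions with limma were 0 lower and 0 higher with percentiles as the score (14 at an unadjusted p below 0.05), 3 and 4 with absent peaks set to 50, and 0 and 0 without the Myh8 region, a fit added after seeing the data (17 at an unadjusted p below 0.05). Without a library the lower calls stayed at 1 and the higher calls ran from 0 (without wild-type replicate 1 or 3, or mfn2-/- replicate 2 or 3) to 2 (without mfn2-/- replicate 1, adding Gm10801). The fall at Myh8 was past the threshold in 11 of 12 alternatives (limma adjusted p from 1.31e-28 to 0.906, the last with percentiles), and the rise at Gm5614 in 7 of 13 (from 0.000558 to 0.734). Some strong regions without a call changed sign. Plag1 reached -0.0913 with percentiles and ran from -0.197 to 0.52 without a library, Gm26553 from -0.162 to 0.53, Coil from -0.0835 to 0.549 and Igf2bp3 from -0.85 to 0.0653. The cause of these changes was not tested. Replicate numbers are shared by the labels, but same-numbered libraries had correlations of deviations of 0.050, 0.076 and 0.018, so the numbers were not taken as pairs, and wild-type replicate 3 correlated best with another number. The replicate block changed no call (1 region higher and 1 lower).

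Scores at the ceiling limit the Myh8 comparison, and 3 libraries against 3 cannot reach an exact p below 0.1. Unknown depth limits every count of peaks present or absent. Signal under the floor of 50 is not seen in these lists.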
